A study of Mus musculus with 32 samples.

Results

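The mice compared here were the 22 of 32 that had the most or the least Fos RNA in the frontal cortex among animals given the same kind of gut microbiota. They were chosen by their Fos level, as CPM (the gene's count divided by the library's total count and multiplied by 1000000), ranked within each donor group. The 4 highest and 4 lowest mice were taken from the 12 that received human microbiota and from the 12 that received macaque microbiota, and the 3 highest and 3 lowest from the 8 that received squirrel monkey microbiota. This gave 11 high-Fos and 11 low-Fos mice. The other 10 mice, in the middle of their rankings, entered no comparison unless stated. Because Fos chose the animals, its own values are a description and carry no test, and every other gene was compared with donor group as a covariate.

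The tissue was bulk infralimbic and prelimbic frontal cortex, 1 library per mouse, read as 3′ tags (TagSeq, which counts short reads from transcript ends). The donors were humans (label Human), the squirrel monkey Saimiri boliviensis (label Squirrel.Monkey) and the macaque Macaca mulatta (label Macaque). All mice carried a primate microbiota, and mice without one were not analysed here. The strain, sex and age of the mice, and what they did before the tissue was taken, are not stated by the labels. In the main comparison, p-values refer to high-Fos and low-Fos mice from the ends of a ranking, with the middle mice left out.

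Fos encodes a subunit of AP-1, a dimeric transcription factor made of Fos and Jun proteins. It is an immediate early gene: calcium entry and growth factor signalling through kinases such as ERK and CaMK act on CREB and serum response factor already bound at its promoter, so its RNA appears within minutes and without new protein synthesis. Egr1, Egr4, Npas4, Nr4a1 and Arc are induced in neurons in a like manner, and in cortex their RNA is widely used to mark recently active cells. Fos is also induced in glia and vessels, so in bulk tissue its level does not name a cell type. In such samples, fewer cells of a type and less RNA per cell cannot be told apart.

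In the mice given human microbiota, Fos was at 58.2, 44.7, 42.3 and 35.7 CPM in the high-Fos animals and at 19.4, 14.7, 11.7 and 7.18 CPM in the low-Fos animals. The nearest mice outside these sets had 30.4 and 21.3 CPM. In the squirrel monkey group the high-Fos mice had 62.9, 53.3 and 47.8 CPM and the low-Fos mice 27.6, 20.5 and 12.8 CPM, with the 2 middle mice at 38.1 and 35.98 CPM. In the macaque group the high-Fos mice had 88.9, 80.2, 56.7 and 51.2 CPM and the low-Fos mice 18.1, 11.9, 8.46 and 5.03 CPM, and the nearest mice outside had 44.1 and 27.5 CPM. The ranking therefore cut a continuous spread, widest in the macaque group. These levels rest on 51 to 118 Fos counts in each high-Fos library and 8 to 42 in each low-Fos library.

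**Figure D1:**
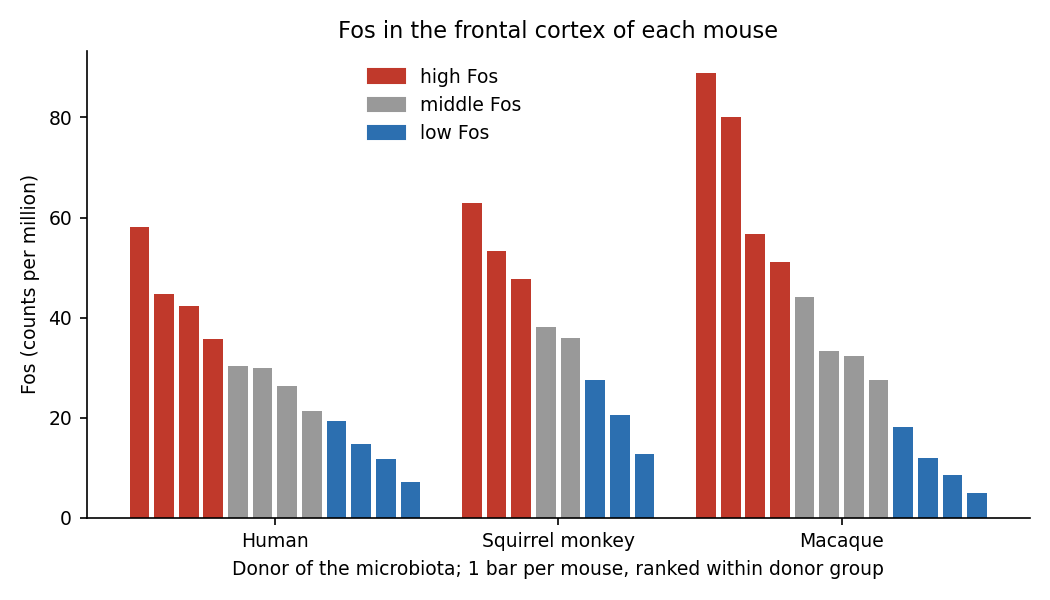
Fos in CPM (vertical axis) for each of the 32 mice, 1 bar per mouse, ranked within the 3 donor groups; red bars are the 11 high-Fos mice, blue bars the 11 low-Fos mice and grey bars the 10 mice between them. The bars fall without a clear break, with human-donor mice at 58.2 down to 7.18 CPM, squirrel monkey-donor mice at 62.9 down to 12.8 and macaque-donor mice at 88.9 down to 5.03.

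Library totals ran from 1035036 to 2089308 counts over the 32 mice, with medians of 1500797 in the high-Fos and 1533523 in the low-Fos mice. The tissue carried cortical excitatory markers throughout: Slc17a7, the vesicular glutamate transporter of cortical neurons, was at 305 to 573 CPM in the high-Fos mice and 359 to 506 CPM in the low-Fos mice, and Tbr1 was at 105 to 207 and 96.5 to 161 CPM. Adora2a, which marks striatal neurons, had a median of 0 CPM at both levels. The high-Fos library of human replicate 7 stood apart from the other 21. It held the striatal and basal forebrain markers Six3 at 46.4 CPM, Isl1 at 15.6 CPM and Adora2a at 4.89 CPM, where the others reached at most 6.12, 2.45 and 1.49 CPM, and Fezf2, of deep-layer cortical neurons, at 33.7 CPM beside 104 to 189.9 CPM. Without it 7 genes were higher and 0 lower, namely the 6 described next and Fosb, and the 6 had log2 fold changes of 1.10 to 1.63. The labels place each mouse in 1 of 6 batches, 2 per donor group. High-Fos and low-Fos mice were found in 5 of them, but the human group was uneven: its 4 high-Fos mice were all in batch B, and batch A held 2 low-Fos mice and 0 high-Fos mice.

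Beside Fos, 6 genes were higher in the high-Fos mice and 0 were lower among the 11959 genes tested, which is 0.0502% and 0% of them (edgeR quasi-likelihood test, Benjamini-Hochberg adjusted p under 0.05). All 6 are known neuronal activity genes: Egr4, Egr1, Arc, Nr4a1, Npas4 and Junb. At an unadjusted p under 0.05, 260 genes were higher (2.17%) and 252 lower (2.11%), so the whole table was split almost evenly. The median log2 fold change of all tested genes was -0.0047, and the 0.05 and 0.95 quantiles were -0.21 and 0.22. DESeq2 called 9 genes higher and 0 lower, and limma voom called 5 higher and 0 lower. With batch in place of donor group as the covariate, 3 of the 6 were called: Egr4, Egr1 and Arc.

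Egr4 and Egr1 encode zinc finger transcription factors of one family, which bind GC-rich sites and are induced by synaptic activity. Egr4 was at 65.1, 65.5, 66.1 and 69.7 CPM in the high-Fos mice of the human group and at 23.9, 30.6, 32.0 and 41.7 CPM in the low-Fos mice. It was at 57.3, 68.7 and 78.0 against 32.8, 35.5 and 50.7 CPM in the squirrel monkey group, and at 82.1, 84.8, 87.2 and 90.4 against 18.2, 28.3, 32.6 and 36.7 CPM in the macaque group. Every high-Fos mouse was thus above every low-Fos mouse, across donor groups as well as within them. The log2 fold change was 1.16 ± 0.12 (SE, 11 against 11 mice), a 2.24-fold difference, with an edgeR adjusted p of 1.84e-06.

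Egr1 was at 134, 134, 152 and 180 CPM in the high-Fos mice of the human group and at 48.8, 63.3, 70.9 and 85.7 CPM in the low-Fos mice. The squirrel monkey group had 117, 123 and 135 against 54.3, 91.5 and 105 CPM, and the macaque group 161, 163, 173 and 247 against 37.1, 61.2, 87.2 and 104 CPM. The levels did not overlap in any donor group, and the log2 fold change was 1.09 ± 0.14 (SE, edgeR adjusted p 0.000209). Egr4 and Egr1 were the 2 of 11959 genes (0.0167%) whose high-Fos and low-Fos mice were separated in all 3 donor groups with the high-Fos mice above. In the opposite direction 0 genes (0%) were separated.

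Arc encodes a cytoskeleton-associated protein that is translated in dendrites and takes part in AMPA receptor endocytosis. It was at 24.4, 32.3, 43.2 and 51.8 CPM in the high-Fos mice of the human group and at 5.26, 7.17, 11.2 and 13.5 CPM in the low-Fos mice. In the squirrel monkey group 26.8, 39.7 and 40.6 CPM stood against 11.2, 11.6 and 31.6 CPM, and in the macaque group 36.6, 47.3, 48.3 and 111 CPM against 10.1, 10.6, 24.1 and 30.6 CPM. Only in the squirrel monkey group did the levels overlap, where 1 low-Fos mouse (replicate 7, also the low-Fos mouse with the most Fos) lay above the lowest high-Fos mouse. Its log2 fold change was the largest of the 6 called genes, 1.62 ± 0.24 (SE, edgeR adjusted p 0.00131), or 3.08-fold.

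Nr4a1 encodes an orphan nuclear receptor of the immediate early class. Over all donor groups it ran from 22.7 to 64.6 CPM with a median of 35.2 in the high-Fos mice, and from 9.59 to 30.9 CPM with a median of 14.7 in the low-Fos mice. Its groups were separated in the human and macaque mice and overlapped in the squirrel monkey mice, where high-Fos animals had 22.7, 27.3 and 30.2 CPM and low-Fos animals 9.59, 19.1 and 30.9 CPM. The log2 fold change was 1.10 ± 0.18 (SE, edgeR adjusted p 0.00681, and 0.0578 with batch as the covariate).

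Npas4 encodes a neuronal bHLH-PAS factor induced by calcium influx, and it was the most uneven of the 6 between donor groups. In the macaque group the high-Fos mice had 24.4, 26.6, 27.9 and 65.7 CPM and the low-Fos mice 5.86, 7.46, 8.80 and 9.34 CPM. In the squirrel monkey group they had 20.95, 22.03 and 23.3 against 3.41, 7.99 and 15.8 CPM. In the human group the levels overlapped, with 9.96, 11.2, 11.7 and 21.9 CPM in the high-Fos mice, 7.95, 9.13, 11.2 and 13.4 CPM in the low-Fos mice, and 14.97 to 25.1 CPM in the 4 middle mice. The log2 fold change over all 22 mice was 1.28 ± 0.25 (SE, edgeR adjusted p 0.0403, and 0.0578 with batch as the covariate). Over all donor groups Npas4 averaged 24.1 CPM in the high-Fos, 24.3 CPM in the middle and 9.12 CPM in the low-Fos mice. With all 32 mice split at the median its log2 fold change was 0.66 (edgeR adjusted p 0.873).

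Junb encodes an AP-1 partner of Fos proteins. It ran from 19.3 to 65.9 CPM with a median of 41.0 in the high-Fos mice and from 4.36 to 31.6 CPM with a median of 16.3 in the low-Fos mice. The human and macaque groups were separated and the squirrel monkey group was not, since low-Fos replicate 7 had 31.6 CPM. The log2 fold change was 1.14 ± 0.22 (SE, edgeR adjusted p 0.0427, and 0.196 with batch as the covariate). Junb lies opposite Prdx2, a peroxiredoxin gene on the other strand, and whether reads were counted by strand is not given in the labels. Prdx2 itself was at 320 to 457 CPM in the high-Fos and 349 to 503 CPM in the low-Fos mice, and differed by -0.11 ± 0.07 on the log2 scale (SE, edgeR adjusted p 1.0).

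**Figure D2:**
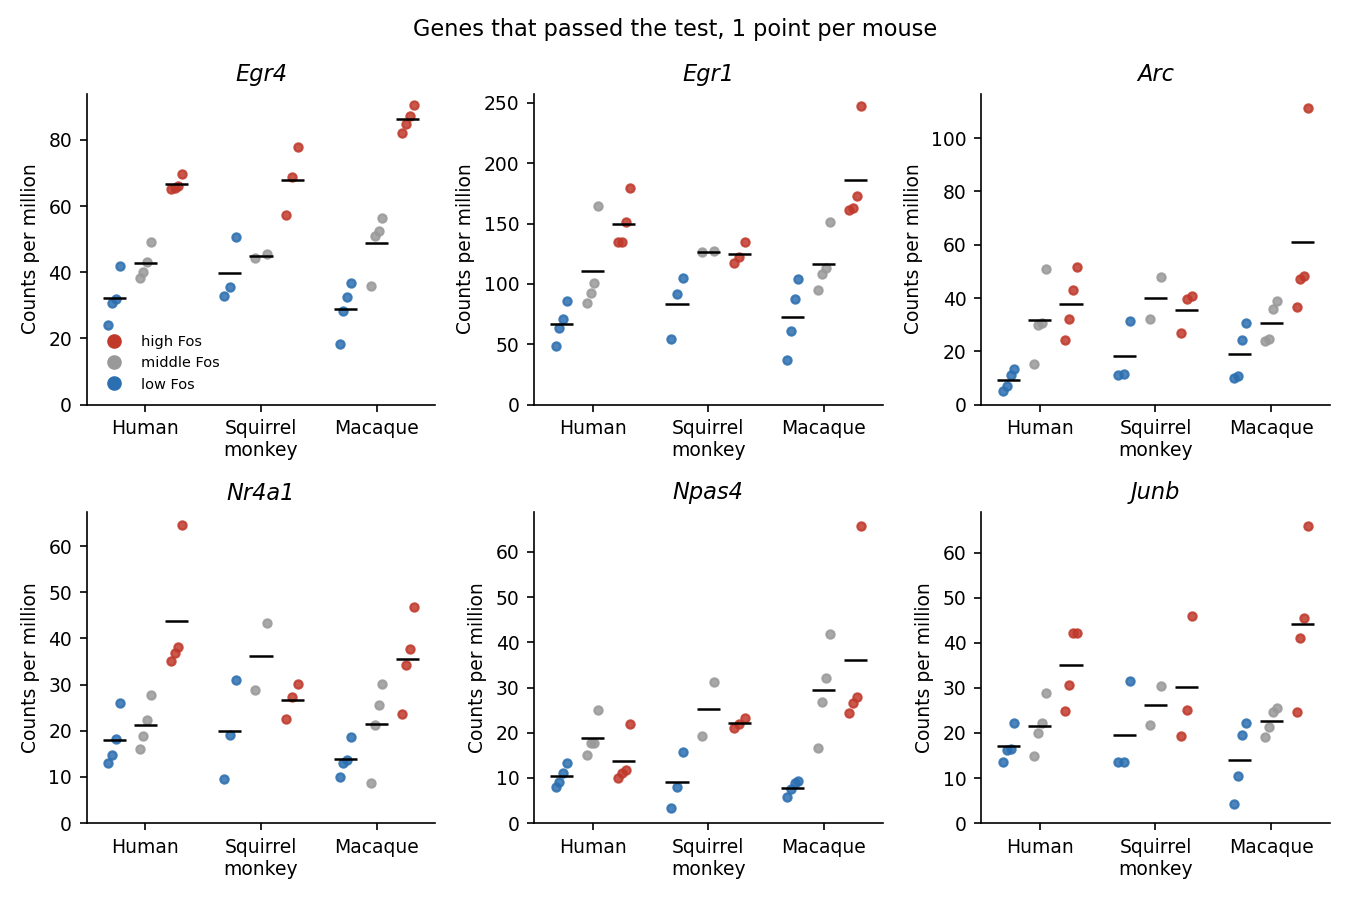
CPM (vertical axis, from 0) of the 6 genes that passed the test, 1 point per mouse, by donor group and Fos level (blue low, grey middle, red high); black lines are the means of each set. Egr4 and Egr1 show no overlap of red and blue points in any donor group, the Arc, Nr4a1 and Junb points overlap in the squirrel monkey group, and the Npas4 points overlap in the human group.

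The 6 genes were also viewed mouse by mouse. They were called in these same mice, so the counts that follow describe the animals and lend no further support. In 8 of the 11 low-Fos mice, 0 of the 6 genes was above the median of the donor group's mice, and the highest low-Fos mouse, squirrel monkey replicate 7, had 3 above it. Each high-Fos mouse had at least 4 of the 6 genes above that median, and 4 of the 11 had all 6. The 4 with all 6 were 3 macaque mice, all of batch F, and human replicate 10. Npas4 was at or below the median in human replicates 5, 6 and 7, in replicate 6 together with Arc, and in macaque replicate 2, while Nr4a1 was at or below it in squirrel monkey replicates 2 and 8.

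Over all 32 mice, with donor group means removed, log2 CPM of the 6 genes correlated positively in each of the 15 pairs. The closest pair was Egr1 and Nr4a1, with Pearson's r of 0.869 and Spearman's rho of 0.892 (both p 1e-05 by permutation within donor groups, the smallest the 100000 resamples can give, adjusted 3e-05 and 3.75e-05 over the 15 pairs). Without the 2 mice farthest from the Egr1 median r was 0.859, and in batches B and F, those with at least 6 mice, it was 0.893 and 0.873. The least close pair was Nr4a1 and Npas4, with r of 0.544 (permutation p 0.00219, adjusted 0.00219) and rho of 0.562 (permutation p 0.0017, adjusted 0.00182), r of 0.535 without the 2 farthest mice, and r of -0.23 in batch B and 0.741 in batch F. These 6 genes were picked because they followed Fos in most of the same mice, so the values describe the animals and lend no further support.

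**Figure D3:**
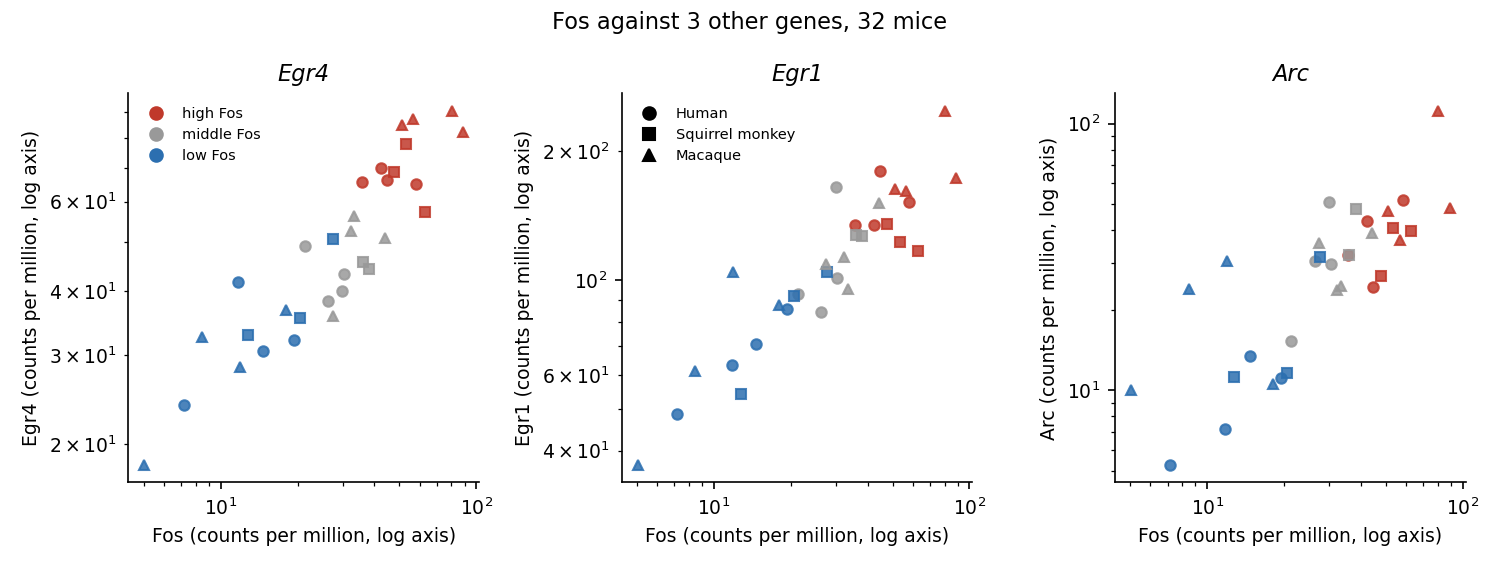
Fos (horizontal, CPM, log axis) against Egr4, Egr1 and Arc (vertical, CPM, log axis) in all 32 mice; colour gives the Fos level and the symbol the donor group. The 10 grey middle mice all lie below the high-Fos mice in Egr4 (at most 56.3 against at least 57.3 CPM), and run from 15.3 to 50.7 CPM in Arc, across the levels of both other sets.

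Promoter sequence is shown for Fos and for the called genes that RefSeq's table holds, to let the cAMP response element (CRE), the CREB site through which calcium signals reach such genes, be read beside the values. Of these 7 genes 5 had an entry. Each line gives the 250 bases before the gene's start, 5′ to 3′ along the gene, in build GRCm38.p6, with each CRE core (TGACG on either strand) in capitals.

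Fos, chr12:85473640-85473889, forward strand: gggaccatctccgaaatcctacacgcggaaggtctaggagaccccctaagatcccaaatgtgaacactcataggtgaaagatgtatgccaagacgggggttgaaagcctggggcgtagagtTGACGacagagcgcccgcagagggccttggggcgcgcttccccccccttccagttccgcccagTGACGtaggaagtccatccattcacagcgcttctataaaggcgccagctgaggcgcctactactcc
Egr4, chr6:85513590-85513839, reverse strand: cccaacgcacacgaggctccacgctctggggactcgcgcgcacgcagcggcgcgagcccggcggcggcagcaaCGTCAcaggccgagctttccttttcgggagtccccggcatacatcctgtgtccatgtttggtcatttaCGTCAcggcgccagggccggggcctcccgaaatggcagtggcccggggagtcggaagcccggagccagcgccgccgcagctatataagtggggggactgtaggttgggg
Nr4a1, chr15:101266596-101266845, forward strand: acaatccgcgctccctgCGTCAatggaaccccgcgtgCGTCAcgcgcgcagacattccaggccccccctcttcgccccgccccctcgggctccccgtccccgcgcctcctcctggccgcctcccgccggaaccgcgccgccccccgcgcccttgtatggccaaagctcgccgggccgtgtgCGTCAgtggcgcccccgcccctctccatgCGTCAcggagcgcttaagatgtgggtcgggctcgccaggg
Npas4, chr19:4989972-4990221, reverse strand: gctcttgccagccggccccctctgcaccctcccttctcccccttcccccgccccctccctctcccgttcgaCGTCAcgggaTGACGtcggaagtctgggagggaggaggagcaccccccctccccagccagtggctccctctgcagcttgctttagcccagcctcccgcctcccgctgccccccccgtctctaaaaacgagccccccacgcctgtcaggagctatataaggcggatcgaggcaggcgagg
Junb, chr8:84978749-84978998, reverse strand: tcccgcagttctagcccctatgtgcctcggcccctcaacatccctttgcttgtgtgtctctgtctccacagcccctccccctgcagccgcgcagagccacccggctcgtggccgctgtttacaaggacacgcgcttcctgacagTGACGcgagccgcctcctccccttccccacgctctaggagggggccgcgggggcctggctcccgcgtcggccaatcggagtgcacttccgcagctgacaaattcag

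A CRE core was found in each of the 5 windows, with 2 matches for Fos, 2 for Egr4, 4 for Nr4a1, 2 for Npas4 and 1 for Junb, while 17.8% of 32851 such windows in the mouse table held at least 1. The full palindrome TGACGTCA, which contains the core on both strands, was in 0 of the 5 and in 1.55% of all windows. The CArG box, bound by serum response factor, was in 0 of the 5 and in 1.47% of all windows, and the AP-1 site TGANTCA was in 0 of the 5 and in 6.75%. One form of the EGR site, GCGNGGGCG on either strand, was in the Nr4a1 window and in 4.7% of all windows. The windows hold only the 250 bases before the start, so a CArG box or other site further upstream would not be seen. A match is a string of letters and not a bound site.

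The 5 tested AP-1 genes other than Fos differed among themselves. Only Junb passed the test, and 2 were higher at an unadjusted p under 0.05, beside 2.17% of all tested genes. Their median log2 fold change was 0.30, beside -0.0047 over all tested genes. Fosb, whose product is a slower and longer-lived Fos relative, ran from 16.6 to 68.6 CPM (median 39.0) in the high-Fos and from 13.4 to 39.7 CPM (median 22.6) in the low-Fos mice, a log2 difference of 0.73 ± 0.17 (SE, edgeR adjusted p 0.208). Fosl2 stood at 0.30 ± 0.16, Jund at 0.02 ± 0.06 and Jun at -0.23 ± 0.17 (SE, edgeR adjusted p 1.0 for each). Jun, the classical partner of Fos, had medians of 67.3 CPM in the high-Fos and 67.8 CPM in the low-Fos mice, and the mouse with the most Jun (165 CPM) was a low-Fos mouse. Fosl1 had 0 counts in all 22 mice.

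Of the 24 other inducible transcription factors listed, 21 passed the low-count filter. Egr4, Egr1, Nr4a1 and Npas4 rose, 0 fell, 11 of the 21 had a positive difference at an unadjusted p under 0.05, and the median log2 fold change was 0.52. Over all tested genes 48.2% were above 0 and 2.17% were higher at that unadjusted p. Of those not past the threshold, Csrnp1 (a cysteine- and serine-rich nuclear protein) stood at 0.94 ± 0.23, Ier2 at 0.87 ± 0.23, Tiparp (a TCDD-inducible ADP-ribosyltransferase) at 0.79 ± 0.18 and Btg2 (an antiproliferative cofactor) at 0.74 ± 0.18 (log2 ± SE, edgeR adjusted p between 0.208 and 0.448). In Tiparp every high-Fos mouse was above the median low-Fos mouse, with 14.2 to 30.8 CPM against 4.98 to 21.7 CPM, and the human and macaque groups did not overlap.

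Within the NR4A and EGR families the members differed. Nr4a3 was at 0.52 ± 0.14 and Nr4a2 at 0.40 ± 0.16 (log2 ± SE, edgeR adjusted p 0.493 and 1.0), beside 1.10 for Nr4a1. Egr3 was at 0.11 ± 0.16 (edgeR adjusted p 1.0), with 49.9 to 111 CPM in the high-Fos and 48.4 to 197 CPM in the low-Fos mice. Egr2 was under the low-count filter, with 188 counts over the 22 mice. It was seen in all 11 high-Fos libraries at 2.67 to 14.95 CPM (median 9.60) and in 9 of 11 low-Fos libraries at 0 to 5.21 CPM (median 2.24). With a filter of at least 5 CPM on average Egr2 differed by 2.09 ± 0.33 on the log2 scale (SE, edgeR adjusted p 0.0019). The low-Fos mice, at most at 5.21 CPM, would not have passed that filter alone. Egr2 passed it through the high-Fos mice, so this p-value lends no support. DESeq2, which applied its own filter on the mean count over all 22 mice, gave 2.14 ± 0.35 for Egr2 (SE, adjusted p 7.31e-06). That mean was also raised by the high-Fos mice, so this p-value lends no support either.

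None of the remaining members of the list passed the test. The Krüppel-like factors Klf10 and Klf4 were at 0.53 ± 0.22 and 0.70 ± 0.34, and Klf6 was at -0.16 ± 0.11 (log2 ± SE, edgeR adjusted p 1.0). Ier3, Ier5, Fbxo33, Bhlhe40 and Nfil3 lay between 0.06 and 0.21, and Crem and Cited2 at -0.07 and -0.15. Atf3 and Maff, also under the filter, had median levels of 1.999 against 1.49 CPM and 5.81 against 1.87 CPM in high-Fos and low-Fos mice. DESeq2, which tested them, gave 1.197 ± 0.56 for Atf3 and 1.04 ± 0.45 for Maff (log2 ± SE, unadjusted p 0.0335 and 0.0202, adjusted p 1.0 for both).

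**Figure D4:**
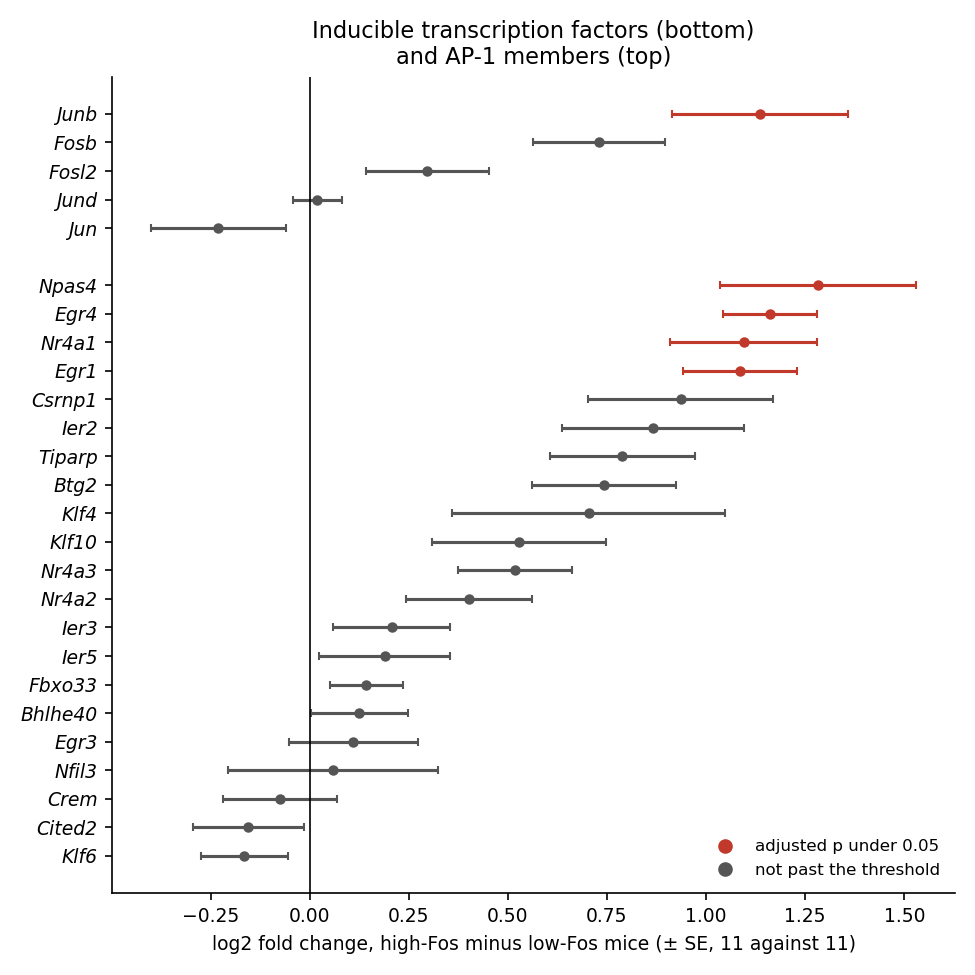
Log2 fold change of high-Fos against low-Fos mice (horizontal, with SE bars, 11 against 11 mice) for the 5 tested AP-1 members (top) and the 21 tested members of the other list (bottom); red marks an edgeR adjusted p under 0.05. Junb, Npas4, Egr4, Nr4a1 and Egr1 are red and lie between 1.09 and 1.28, and Jun, Jund, Egr3 and Klf6 lie near or below 0.

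Among 27 tested synaptic and secreted effectors, the proteins through which activity genes act on synapses, Arc rose and the other 26 did not pass the test. The list's median was 0.06, with 7 members higher and 1 lower at an unadjusted p under 0.05. At that p 2.17% of all tested genes were higher and 2.11% lower. Arl4d, a small GTPase of the ARF family, ran from 21.9 to 71.3 CPM (median 50.5) in the high-Fos and from 11.01 to 62.5 CPM (median 17.6) in the low-Fos mice, and 11 of 11 high-Fos mice were above the median low-Fos mouse. Its log2 difference was 1.03 ± 0.24 (SE, edgeR adjusted p 0.208). Sgk1, a serum- and glucocorticoid-induced kinase, stood at 0.74 ± 0.19 (edgeR adjusted p 0.352) and Ptgs2, the inducible cyclooxygenase, at 0.50 ± 0.17 (edgeR adjusted p 0.874).

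Genes of the slower activity programme, named here for their common use rather than by the rule for named genes, did not pass the test. Homer1 was at 0.04 ± 0.11, Bdnf at -0.09 ± 0.19, Nptx2 at -0.40 ± 0.33 and Vgf at -0.15 ± 0.13 (log2 ± SE, edgeR adjusted p 1.0). Gene counts do not separate the short activity-induced Homer1a transcript or the separate Bdnf promoters from the rest of those genes.

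The feedback regulators, such as phosphatases that shut off ERK, gave no called gene among 26, yet 21 of the 26 were positive. Their median was 0.31, and 11 were higher and 0 lower at an unadjusted p under 0.05, beside 48.2% above 0 and 2.17% higher at that p over all tested genes. Pim3, a serine/threonine kinase, stood at 0.49 ± 0.13, Midn, which guides induced transcription factors to the proteasome, at 0.30 ± 0.08, Gadd45g at 0.67 ± 0.19 and Dusp5, a nuclear ERK phosphatase, at 0.77 ± 0.22 (log2 ± SE, edgeR adjusted p 0.396 to 0.566). In each of these 4 genes all 11 high-Fos mice were above the median of the low-Fos mice in their own donor group. The constitutive kinases and factors upstream of the early genes stayed near the table's centre: 0 of 32 passed, and the median was 0.03. Rps6ka3, an ERK-activated kinase, was at 0.34 ± 0.11 (log2 ± SE, edgeR adjusted p 0.768).

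Early genes are also induced outside neuronal signalling, and lists of vascular, glucocorticoid, heat shock and clock genes were compared in the same fit. None of the 13 tested vascular early response genes passed the test, but all 13 were positive, with a median of 0.46, and 5 were higher at an unadjusted p under 0.05, again beside 48.2% and 2.17% over all tested genes. Of these 5, Csrnp1, Sgk1, Tsc22d3 and Nfkbia also belong to other lists used here, and Adamts1 does not. Adamts1, a secreted protease, was at 4.27 to 48.3 CPM (median 14.1) in the high-Fos and 4.79 to 19.97 CPM (median 8.95) in the low-Fos mice, a log2 difference of 0.71 ± 0.27 (SE, edgeR adjusted p 1.0). Levels of this list were summed over 19 of its 20 genes, tested or not. The sum was 437 to 935 CPM (median 606) in the high-Fos and 336 to 670 CPM (median 457) in the low-Fos mice. These ranges overlap, and the part of this list in the differences of the 6 genes was not tested.

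Of 18 tested glucocorticoid response genes 0 were called, 8 were higher and 0 lower at an unadjusted p under 0.05, and the median was 0.27. Over all tested genes 2.17% were higher and 2.11% lower at that p. Arrdc2, an alpha-arrestin, led with 0.89 ± 0.20 (log2 ± SE, edgeR adjusted p 0.208), at 11.2 to 36.6 against 5.59 to 24.3 CPM. Per1, which is both a clock gene and a CREB target, was at 0.34 ± 0.12, and Ddit4 at 0.63 ± 0.21 (edgeR adjusted p 1.0 and 0.836). Fkbp5, the usual readout of glucocorticoid receptor activity, was at 0.10 ± 0.14 (edgeR adjusted p 1.0). Several of these genes, Sgk1, Per1 and Tsc22d3 among them, belong to more than 1 of the lists.

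The heat shock and clock lists stayed near 0. Of 23 heat shock and chaperone genes 0 were called and the median was 0.04; Dnajb5, a DNAJ cochaperone, stood highest at 0.43 ± 0.11 (log2 ± SE, edgeR adjusted p 0.396). Of 19 clock genes 0 were called and the median was 0.13, with Per2 at -0.31 ± 0.16, Ciart at 0.40 ± 0.22 and Cry2 at 0.13 ± 0.07 (log2 ± SE, edgeR adjusted p 1.0). The 3 cold-inducible RNA-binding protein genes ranged from -0.14 to 0.02.

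**Figure D5:**
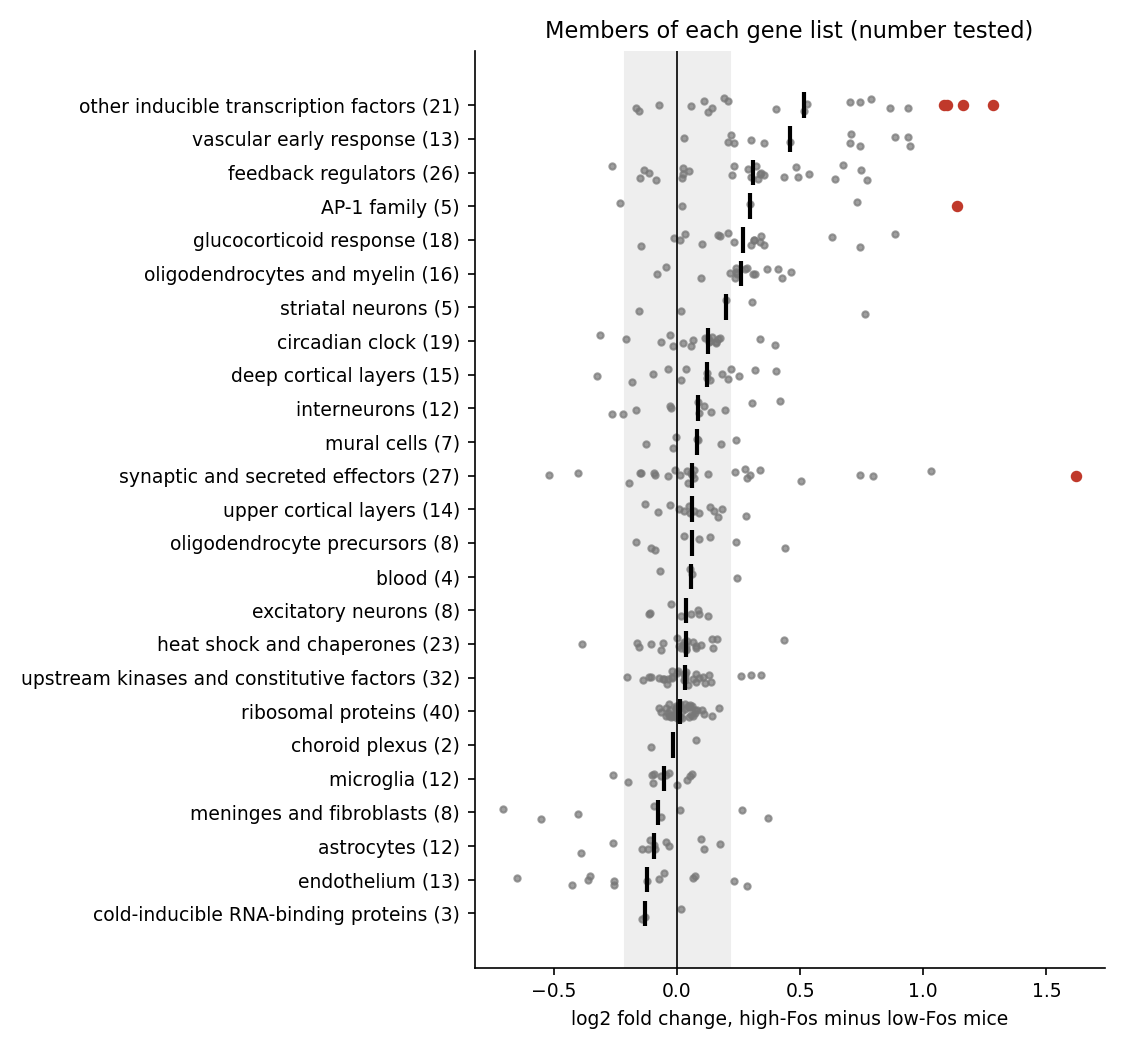
Log2 fold change of high-Fos against low-Fos mice (horizontal) for each tested member of 25 gene lists, with the number tested in brackets; each grey point is a gene that did not pass the test, red points are called genes, black bars are list medians and the shaded band holds the 0.05 to 0.95 quantiles of all 11959 genes (-0.21 to 0.22). The inducible transcription factors (median 0.52), vascular early response genes (0.46) and feedback regulators (0.31) lie furthest to the right, and the ribosomal proteins (0.01) and excitatory neuron markers (0.04) lie at the centre.

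No marker gene of a cell type passed the test. The 8 excitatory neuron markers had a median of 0.04, and their summed level ran from 3216 to 4540 CPM in the high-Fos and from 3372 to 4498 CPM in the low-Fos mice. The 12 astrocyte markers (median -0.09) summed to 3380 to 4523 against 2976 to 4279 CPM, the 12 microglia markers (median -0.05) to 522 to 715 against 516 to 686 CPM, and the 13 endothelial markers (median -0.12) to 659 to 869 against 661 to 923 CPM. Cldn5, the tight junction protein of brain endothelium, was the marker of smallest p, at 7.55 to 16.1 CPM (median 11.7) in the high-Fos and 9.34 to 31.4 CPM (median 17.2) in the low-Fos mice, a log2 difference of -0.65 ± 0.19 (SE, edgeR adjusted p 0.626). The other marker lists had medians of 0.06 for 14 upper layer and 0.12 for 15 deep layer genes, 0.09 for 12 interneuron, 0.06 for 8 oligodendrocyte precursor, 0.08 for 7 mural cell, -0.08 for 8 meningeal, -0.01 for 2 choroid plexus and 0.06 for 4 blood genes, and 0.01 for 40 ribosomal protein genes.

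Myelin genes spread widely within both sets. Of 16 tested oligodendrocyte and myelin markers 14 were positive and 0 were called, with a median of 0.26. Over all tested genes 48.2% were positive. Levels were summed over all 19 listed markers, tested or not. The sum had a median of 1874 CPM in the high-Fos and 1037 CPM in the low-Fos mice. Its ranges were alike, at 874 to 5998 and 808 to 6061 CPM. With a myelin score as a covariate 5 of the 6 genes were still called, Npas4 being lost at a log2 fold change of 1.17 (edgeR adjusted p 0.117). Without the 3 mice of highest myelin score among the 22, a choice made after seeing the data, 3 were called, namely Arc, Egr1 and Egr4. Junb, Nr4a1 and Npas4 then stood at 1.15, 1.03 and 1.26 on the log2 scale (edgeR adjusted p 0.103, 0.0617 and 0.189). Striatal markers were summed over all 10 listed, of which 5 were tested. The sum was 164 to 621 CPM (median 188) in the high-Fos and 157 to 283 CPM (median 193) in the low-Fos mice.

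The difference was then compared between the 3 donor groups. The interaction of Fos level with donor group called 0 of 11959 genes (0%; edgeR, smallest adjusted p 1.0), with 413 genes (3.45%) at an unadjusted p under 0.05. DESeq2 and limma voom also called 0, with 340 and 379 genes at an unadjusted p under 0.05. Without the low-count filter edgeR called 81 of 23083 genes. For Egr4 the fitted log2 fold changes were 1.06 ± 0.18 in the human, 0.78 ± 0.20 in the squirrel monkey and 1.56 ± 0.18 in the macaque group (SE, interaction p 0.0241 unadjusted and 1.0 adjusted in edgeR). For Npas4 they were 0.40, 1.28 and 2.14 (interaction p 0.00786 unadjusted and 1.0 adjusted in edgeR). As for Egr4, in Egr1, Arc, Nr4a1 and Junb the squirrel monkey group had the smallest of the 3 values, at 0.58, 0.98, 0.40 and 0.63. Fos itself, by the choice of mice, differed by 1.82, 1.43 and 2.64 in the human, squirrel monkey and macaque groups, so the 3 groups did not span equal ranges of Fos.

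Differences within each donor group were taken from a shared fit of all 22 mice. They gave 1 called gene in the human, 0 in the squirrel monkey and 3 in the macaque mice. Leaving out the human mice left 2 called genes (Egr4 and Npas4), leaving out the macaque mice 2 (Egr4 and Egr1) and leaving out the squirrel monkey mice 5. Within the 5 batches that held both levels, the mean of the high-Fos mice was above that of the low-Fos mice in all 5 for Egr4, Egr1, Arc, Nr4a1 and Npas4, and in 4 for Junb. Egr4 was at 66.6 against 36.9 CPM in batch B, 57.3 against 32.8 in batch C, 73.3 against 43.1 in batch D, 87.2 against 32.5 in batch E and 85.8 against 25.4 in batch F. Junb in batch D was at 22.2 against 22.6 CPM. With batch in place of donor group as the covariate, 3 genes were called: Egr4 (log2 fold change 1.113), Egr1 (1.06) and Arc (1.49, adjusted p 0.0449). Nr4a1, Npas4 and Junb then had log2 fold changes of 0.93, 1.39 and 1.02, beside 1.10, 1.28 and 1.14 with donor group, and edgeR adjusted p of 0.0578, 0.0578 and 0.196.

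Egr4, Egr1, Arc and Nr4a1 were called in each of the 22 fits that left out 1 mouse, whereas Npas4 was called in 8 and Junb in 6 of them. The count of genes higher ran from 4 to 10 over these fits, with 10 reached without squirrel monkey replicate 7. Using all 32 mice and Fos as a continuous measure, 10 genes rose and 3 fell per doubling of Fos. The 10 were the 6 above with Dusp1, Egr2, Nr4a3 and Ovca2, and the 3 were Blnk, Wfdc18 and Wfs1. Egr4 then rose by 0.52, Egr1 by 0.55 and Arc by 0.74 log2 units per doubling. In the 10 middle mice alone, a choice made after seeing the data, 0 genes were called (edgeR, 186 higher and 125 lower at an unadjusted p under 0.05), and the edgeR adjusted p of each of the 6 genes was 1.0. The slopes there were 1.22 for Arc, 0.82 for Egr1, 0.56 for Nr4a1, 0.08 for Egr4, -0.22 for Npas4 and -0.35 for Junb, in log2 units per doubling of Fos.

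Below the threshold, 2 genes outside the lists with less RNA in the high-Fos mice were chosen after their values were seen. Tgfbr2, a TGF-beta receptor, had a log2 difference of -0.56 ± 0.13 and Fbln2, an extracellular matrix protein, of -0.67 ± 0.18 (SE, edgeR adjusted p 0.208 and 0.444). Neither passed the test.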

How the data were processed

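Frontal cortex TagSeq libraries of 32 mice were deposited as a table of raw counts per Ensembl gene, whole numbers that the authors had not normalized; the build is GRCm39 per the submitters' processing notes, with aligner, counter and use of strand not given in the sources used here. Groups came from the treatment and batch labels. The 3 columns that match no sample were not used, and rows without a symbol (76 rows) held 0.031% of counts. Mitochondrial transcripts were not used here. Totals of 1035036 to 2089308 counts limit precision for genes of a few CPM.

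Mice were ranked by Fos CPM within donor group. Genes were filtered with filterByExpr (minimum count 10, minimum total 15), scaled by TMM (factors 0.960 to 1.04) and tested with edgeR 4.0.16 quasi-likelihood fits in R 4.3.3, with donor group as covariate, and Benjamini-Hochberg adjustment over 11959 genes at a threshold of 0.05. Fos was left out of every count. The script was tested on simulated data. DESeq2 1.42.0, limma 3.58.1, other filters, scalings, covariates and choices of mice, and leaving out each mouse were the alternatives.

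The members and gene lists were chosen with earlier results of these data known. Named genes were the AP-1 and inducible transcription factor lists and Arc, up to 4 members of smallest p from each other list, and up to 12 called genes per direction with a mean of at least 5 CPM. Promoter windows are RefSeq's, in GRCm38.p6, and carry no coordinates of the count table. Overlapping genes were looked up by name in GENCODE release M21, and the last 300 bases of each gene were compared with all transcripts of that release by blastn 2.17.0: 0 of the 58 genes looked at had a copy of at least 100 aligned bases at 95% identity. Of the 58, 15 have an annotated gene on the opposite strand (among them Junb, Jun, Jund, Tiparp, Csrnp1, Dusp1, Dusp5, Crem, Bhlhe40 and Ovca2), and their counts are uncertain because the use of strand is unknown.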

Additional observations from a re-analysis of the deposited data

Results flagged for a closer look

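Among 53 named genes in the 4 sets of 4 mice (high-Fos and low-Fos, human and macaque groups), 15 of 212 sets held 1 mouse far from the other 3 by Dixon's gap test, which chance alone does in about 1 in 20 sets. Of the called genes, 5 such values were seen. Egr1 reached 247 CPM and Arc 111.5 CPM in macaque replicate 11, a high-Fos mouse, where the others had 161 to 173 and 36.6 to 48.3 CPM. Npas4 reached 65.7 CPM in macaque replicate 6 and 21.9 CPM in human replicate 10, both high-Fos, beside 24.4 to 27.9 and 9.96 to 11.7 CPM in the others. Nr4a1 reached 64.6 CPM in human replicate 6, a high-Fos mouse, beside 35.2 to 38.2 CPM.

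In the low-Fos mice, macaque replicate 12 stood above the other 3 in Csrnp1 (20.8 CPM), Klf10 (75.5 CPM), Klf4 (31.3 CPM) and Sgk1 (58.6 CPM). Human replicate 11 stood above the others in Ier2 (17.1 CPM) and Klf4 (46.9 CPM). Macaque replicate 7 was lowest in Hsp90b1, at 487 CPM beside 606 to 619 CPM. In the high-Fos mice, Ciart was lowest in macaque replicate 6 (17.4 CPM), Per1 highest in macaque replicate 2 (65.4 CPM) and Tiparp highest in human replicate 10 (21.4 CPM).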

How the results depend on the processing

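Ranking by TMM-scaled Fos changed the level of 0 mice, so that setting repeated the main fit. The count of 6 genes higher stayed within 1.5 times under DESeq2 size factors (6), library totals alone (6) and a filter of 5 CPM on average (7, with Egr2). It also did so under DESeq2 (9), limma voom (5), and the library total (4), myelin score (5) or ribosomal protein score (4) as a covariate. The count held likewise for the 2 highest and 2 lowest mice per donor group (8) and without the squirrel monkey mice (5). It was 20 without the low-count filter, where 3 genes were lower and 81 depended on donor species, 3 with batch as a covariate, 10 per doubling of Fos in all 32 mice, where 3 genes were lower, 3 when all 32 mice were split at the median, 2 without the human mice, 2 without the macaque mice and 3 without the 3 mice of high myelin score. It was 0 in the 10 middle mice. Both of the last choices were made after seeing the data. Leaving out 1 mouse gave 4 to 10 genes higher, and 0 lower or dependent on donor species in each of the 22 fits. The causes were not tested.

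Over 19 other settings Egr4 was called in 18, Egr1 in 17, Arc in 16, Nr4a1 in 13, Junb in 10 and Npas4 in 9. These 19 include the ranking by TMM-scaled Fos, which repeated the main fit. In the 10 middle mice the slope turned, never past the threshold, in Junb (-0.35), Npas4 (-0.22), Fosb (-0.0165), Fosl2 (-0.56), Jun (0.52), Tiparp (-0.21), Nr4a2 (-0.0695), Cited2 (0.0409), Bhlhe40 (-0.14), Midn (-0.32), Hdac5 (-0.24), Camk4 (-0.69), Ddit4 (-0.0823), Calr (-0.30), Hsp90b1 (-0.20), Pdia4 (-0.0862), Per2 (0.78), Cry2 (-0.24) and Fbln2 (0.51). Differences near 0 also turned: Jund with batch as a covariate (-0.0352), without the squirrel monkey mice (-0.0237) and without the 3 mice of high myelin score (-0.0168), Ier5 per doubling of Fos in all 32 mice (-0.00460), Nfil3 without the squirrel monkey mice (-0.26), and Crem with the 2 highest and 2 lowest mice (0.11), without the human mice (0.11) and without the macaque mice (0.0121). Leaving out 1 mouse, Jund ran from -0.00673 to 0.0468 and Nfil3 from -0.092 to 0.167.

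No paired analysis was possible because the replicate numbers were given in accession order and do not pair mice. Genes of a few CPM rest on under about 10 counts a library, so smaller differences in such genes were not detectable at this depth.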

Other observations

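Outside the gene lists, 2 genes just below the threshold, chosen after their values were seen, encode parts of the ERK pathway. Mknk2, an ERK-activated kinase that phosphorylates the cap-binding protein eIF4E, was at 22.4 to 35.98 CPM (median 31.4) in the high-Fos and 14.9 to 29.6 CPM (median 22.8) in the low-Fos mice, a log2 difference of 0.44 ± 0.10 (SE, edgeR adjusted p 0.208). Erf, an ETS-family repressor that ERK exports from the nucleus, was at 7.73 to 19.8 CPM (median 13.99) against 3.95 to 12.8 CPM (median 8.20), a log2 difference of 0.66 ± 0.17 (SE, edgeR adjusted p 0.352). In Erf all 11 high-Fos mice were above the median of the low-Fos mice in their own donor group, and in Mknk2 10 of 11 were. Dusp1, an ERK and p38 phosphatase that was called per doubling of Fos in all 32 mice, was at 28.3 to 70.0 CPM (median 45.3) against 15.2 to 55.1 CPM (median 23.1), a log2 difference of 0.75 ± 0.22 (SE, edgeR adjusted p 0.566). Annotated genes overlap Dusp1 on the opposite strand, so its counts are uncertain where strand was not used.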
